A study of Mus musculus with 13 samples.

Results

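Ribosome biogenesis and nucleolar genes encode the proteins that transcribe, modify, cut and fold ribosomal RNA and pack it with ribosomal proteins into subunits. The set described here was a list of 43 genes. Each gene was read through the probe sets whose only gene symbol in the platform annotation is that gene, and where a gene had several, the probe set with the highest mean over all 13 arrays was taken. This gave values for 42 of the 43 genes, among 12205 genes tested in the whole series. Mrto4, a large subunit assembly factor, had no probe set that names it alone and has no value here. All 42 measured genes lay above the filter for low values, which asked for a log2 value above 2.38 in at least 2 arrays.

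The arrays measured RNA of UG26-1B6 cells, a single clone of stroma that was made from the urogenital ridge of mouse embryos at midgestation, so every group is the same clone. The groups were cells taken before co-culture (day 0, 0 h, n = 3 arrays), stroma after 1 day of co-culture with LSK cells (24 h, n = 3), a medium control taken 24 h after the medium was changed, with no LSK cells (n = 2), and stroma after 2 days (48 h, n = 3) and 3 days (72 h, n = 2) of co-culture. LSK cells are bone marrow cells without lineage markers that carry Sca-1 and c-Kit and are rich in haematopoietic stem and progenitor cells. Per the labels' protocols, stroma was irradiated with 30 Gy before LSK cells were added. The sources used here do not say whether day 0 cells and the medium control were irradiated, nor how LSK cells were removed from the stroma. Titles call the arrays of a group biological replicates while the design text says technical. The p-values therefore cover only the spread between arrays, which may be technical.

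Ribosomes are built in the nucleolus. RNA polymerase I makes a long precursor RNA, small nucleolar ribonucleoproteins (snoRNPs) guide its chemical modification, and separate sets of assembly factors bring the small and the large subunit to maturity. Output of this pathway follows growth: it is high in dividing cells, is raised by the transcription factor Myc, and takes up much of a cell's transcription.

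Values are log2 levels as the authors deposited them, and a difference is the mean of the group named first minus the mean of the group named after it, with its standard error (SE). A difference passed the test where its Benjamini-Hochberg adjusted p in limma, over all 12205 genes, lay below 0.05. Levels of different probe sets are not compared with each other. Over the genes tested, 1 array stood apart: replicate 1 of day 2 correlated with any other array at most at 0.785, while the best partner of each other array lay at 0.936 or more. The 3' probe set of Gapdh exceeded the 5' one by 8.96 there, by 5.79 on replicate 2 of day 3, and by 3.82 or less on the other 11 arrays. The mean of 20 blood cell markers lay at 3.83 to 4.58 on day 1 of co-culture, 5.13 to 8.30 on day 2 and 5.53 to 6.31 on day 3, against 2.93 to 2.96 in the medium control and 3.01 to 3.05 at day 0. Of these markers 6 to 9 lay above 5 on day 1, 9 to 15 on day 2 and 10 on day 3, against 1 or 2 in the medium control and at day 0, and Itgam lay at the lowest value on all 13 arrays. Of 12 stromal markers 10 lay above 5 at day 0, while Thy1 and Lum lay at the lowest value there. The mean of the 12 lay at 9.01 to 9.82 at day 0 and at 8.80 and 8.89 in the medium control. With LSK cells this mean was 8.22 to 8.99 on day 1, 6.34 to 8.33 on day 2, and 8.40 and 8.47 on day 3. On day 2 replicate 1, 6 of the 12 lay above 5. A change in each stromal cell and RNA added by LSK cells or their progeny cannot be told apart in such bulk samples.

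Across the 5 groups the genes were lowest most often at day 0, and highest most often in 1 of the 2 groups of day 1. The highest group mean was that of the medium control for 21 of the 42 genes, of day 1 co-culture for 15, of day 2 for 5 and of day 3 for 1. The lowest was that of day 0 for 19 genes, of day 2 for 15, of day 3 for 5, of the medium control for 2 and of day 1 co-culture for 1. The median of the 42 levels ranged over 8.75 to 9.47 at day 0, 9.73 to 10.36 with LSK cells on day 1, 8.95 to 9.68 on day 2, and 9.26 and 9.93 on day 3, and was 10.32 and 10.35 in the medium control. Within groups these genes had a median SD of 0.71, against 0.62 over all genes tested.

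**Figure D1:**
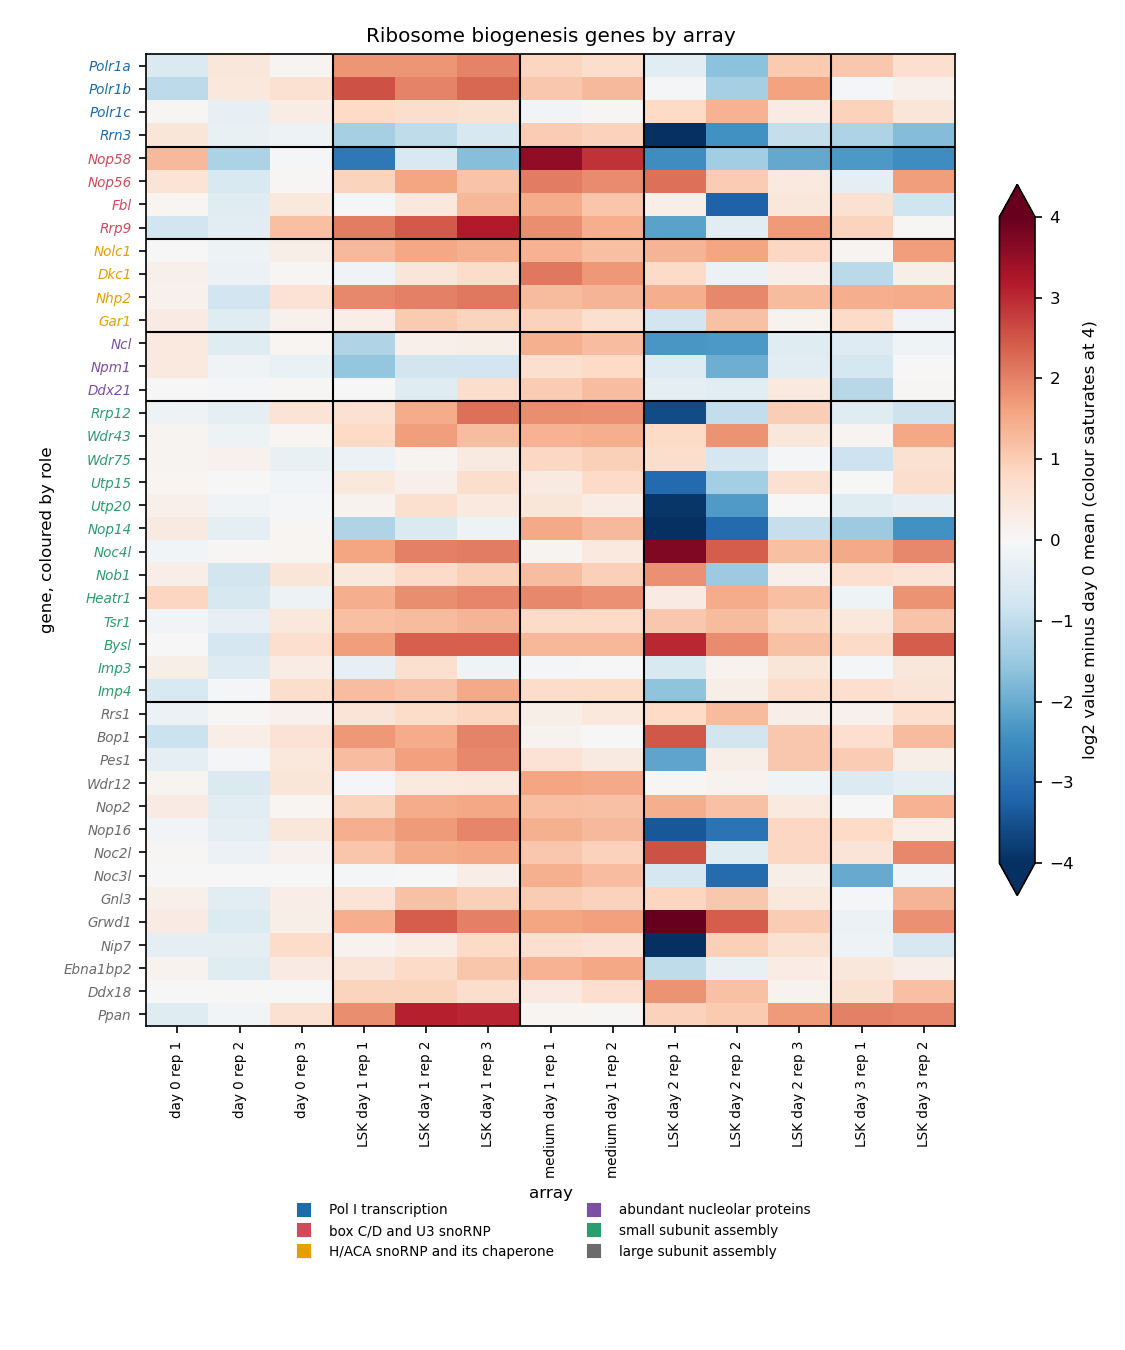
Log2 level of each of the 42 measured genes (rows, grouped and coloured by role) on each of the 13 arrays (columns), minus the gene's day 0 mean; red is above and blue below that mean. The medium control columns are red in nearly all rows, the day 1 co-culture columns are red in most rows apart from Rrn3, Nop58, Npm1 and Nop14, and replicate 1 of day 2 differs from the other day 2 columns in many rows.

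After a change of medium alone, ribosome biogenesis genes lay above day 0 almost throughout, but no single gene passed the test. The difference, medium control minus day 0, was positive for 40 of 42 genes, against 45.2% of all genes, with a median of 1.11 against 0 over all genes tested, and the exceptions Polr1c (-0.03) and Imp3 (-0.02) lay close to 0. In 36 of the 42 genes both medium arrays lay above all 3 day 0 arrays, which 20.6% of all genes did, and in 0 genes did both lie below, against 22.7% of all genes. The differences of 23 genes were at least 2-fold upward, against 7.35% of all genes, and 0 were at least 2-fold downward, against 9.91%. None of the 42 passed at an adjusted p below 0.05, where the share of all genes was 0.221% higher and 0.107% lower. At an unadjusted p below 0.05, 13 members were higher (4.9% of all genes) and 0 lower (4.55%). With weights for the reliability of each array 28 members passed upward, and with those weights 14.2% of all genes did. The 2 medium arrays correlated with each other at 0.9964 and had the largest weights, 6.66 each, against 3.00 or less for any other array. The part of this closeness in the counts was not tested. With only the 2 compared groups in the fit 1 member passed upward (0.385% of all genes), and without day 2 replicate 1 and day 3 replicate 2 together 3 did (1.71%). The mean level of 11 proliferation genes was 10.29 and 10.34 in the medium control against 8.93 to 9.45 at day 0, and its part in these differences was not tested.

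After 1 day with LSK cells, 3 genes rose past the test against day 0 and 0 fell: the large subunit factor Ppan, the H/ACA protein Nhp2 and the small subunit factor Tsr1. Of all genes 0.828% were called higher and 1.33% lower in this comparison. The difference was positive for 37 of 42 members (48.4% of all genes), with a median of 0.86 against 0 over all genes. All day 1 arrays lay above all day 0 arrays in 26 members (17.7% of all genes) and below them in 2, Rrn3 and Npm1 (21.3%). Before adjustment, 21 members were higher (7.5% of all genes) and 2 lower (9.77%) at p below 0.05. Between 0 and 4 members passed when any array was left out other than 2 of the day 2 arrays. Without day 1 replicate 2 or replicate 3 the count was 0, and without day 0 replicate 2 or day 1 replicate 1 it was 1. Although day 2 arrays only add to the shared estimate of the spread here, 9 members rose without day 2 replicate 1: Nolc1, Rrp9, Pes1, Noc4l, Ppan, Tsr1, Bysl, Imp4 and Nhp2. The share of all genes called higher was then 4.35%. With day 2 replicate 3 left out 7 members rose (2.02% of all genes), and without both day 2 replicate 1 and day 3 replicate 2 it was 12 (5.6%). The mean of 4 spiked-in control RNAs with poly-A tails lay at 10.39 to 12.45 on the day 1 co-culture arrays against 5.30 to 8.48 at day 0, and its part was not tested.

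The same co-culture arrays set against the medium control, the control matched in time, gave differences of both signs, in shares close to those of all genes. Ppan rose, and the snoRNP protein Nop58 and the large subunit factor Wdr12 fell, while 2.15% of all genes were called higher and 3.05% lower. The differences of the 42 members were positive for 21 (55% of all genes) and negative for 21, with a median of -0.01 against 0.00 over all genes. All co-culture arrays lay above both medium arrays in 16 members (30.7% of all genes) and below both in 12 (31.8%). Unadjusted p-values lay below 0.05 for 3 higher members (9.04% of all genes) and 6 lower ones (11.9%). The called genes over the whole table split into 263 higher and 372 lower, and into 369 higher and 320 lower after quantile normalisation, in which Ppan and Nop58 passed and Wdr12 did not. No member passed without either of the medium arrays or without day 1 replicate 3, and only Nop58 passed without day 1 replicate 2. Leaving out day 2 replicate 1, Noc4l and Ppan rose and Nop58, Npm1, Dkc1, Wdr12, Nop14 and Rrn3 fell, while 7.61% of all genes were called higher and 9.62% lower. With only the 2 compared groups in the fit 10 members rose and 8 fell, against 17.9% and 19.6% of all genes, and without day 2 replicate 1 and day 3 replicate 2 it was 2 and 5, against 9.23% and 11.9%. The mean level of the 11 proliferation genes was 7.66 to 8.95 on day 1 with LSK cells, against 10.29 and 10.34 in the medium control, and the mean of the spiked-in RNAs was 10.39 to 12.45 against 4.58 and 4.86. Their part in these differences was not tested.

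**Figure D2:**
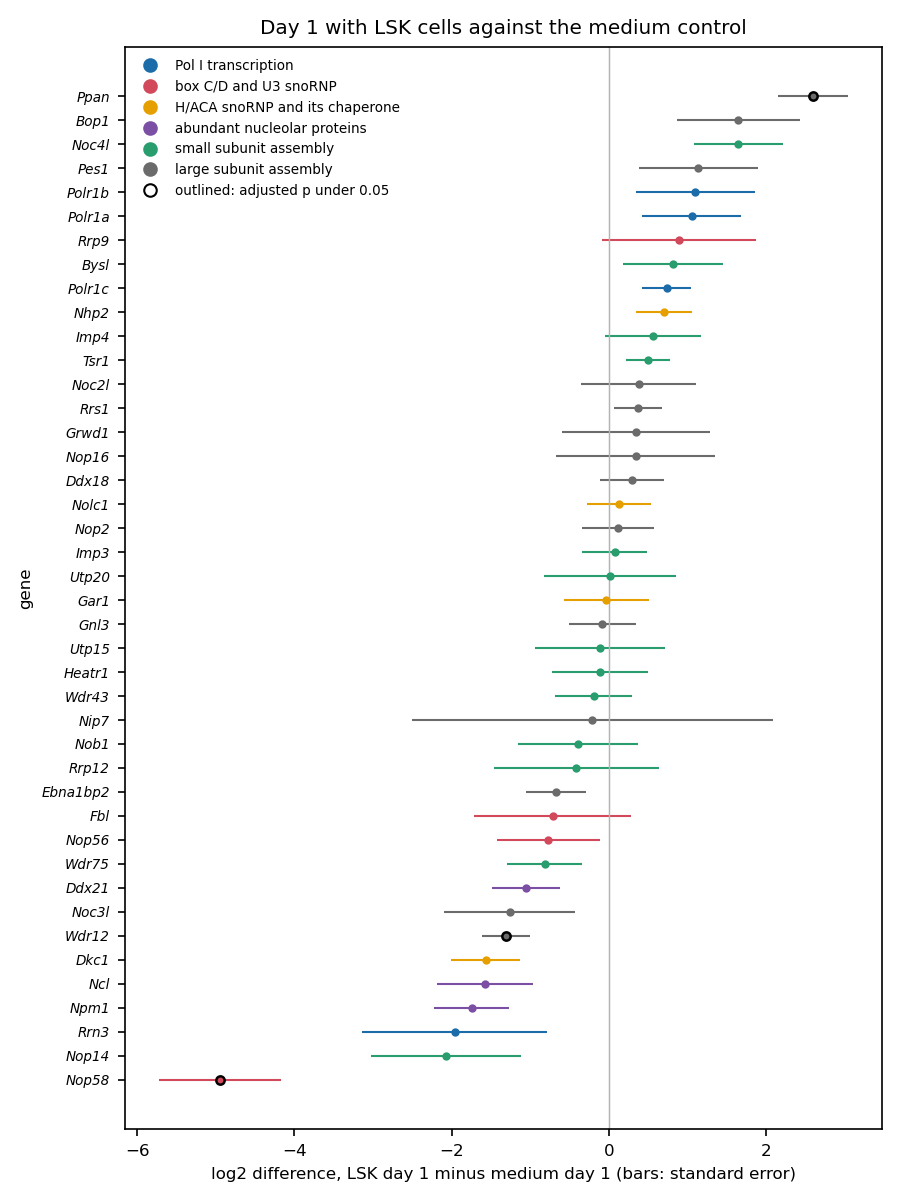
Log2 difference of each of the 42 genes between day 1 co-culture (n = 3 arrays) and the medium control (n = 2), with its standard error, sorted by size and coloured by role; outlined points passed the test. Ppan lies at 2.59 at the top, Nop58 at -4.94 at the bottom, and Ncl, Npm1 and Ddx21 all lie below -1.

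On day 2 of co-culture Noc4l and Nhp2 rose against day 0 and 0 members fell, against 0.639% of all genes called higher and 1.62% lower. The differences were positive for 23 of 42 members (38.5% of all genes), with a median of 0.05 against -0.29 over all genes. The median was -0.08, with 20 positive, without day 0 replicate 2, and 0.28 without day 0 replicate 3, 0.25 without day 2 replicate 1 and 0.34 without day 2 replicate 2. The median of all genes depends on the scaling: it was -0.03 after quantile normalisation, with a member median of 0.47, and 0.49 after centring on the measured probe sets, with a member median of 0.83. The calls over all genes split into 78 higher and 198 lower, into 105 and 124 after quantile normalisation, and into 49 and 51 after centring. All day 2 arrays lay above all day 0 arrays in 13 members (6.46% of all genes) and below them in 4 (16.2%). Before adjustment, 12 members were higher (6.83% of all genes) and 6 lower (19.4%) at p below 0.05. Leaving out any array but day 0 replicate 3, a day 2 array or a day 3 array brought the count of calls to 0. It was 1 without day 2 replicate 1, 0 without day 2 replicate 2, and 10 higher and 7 lower without day 2 replicate 3, where 6.02% of all genes were called higher and 22.6% lower. The mean of the spiked-in RNAs lay at 9.98 to 14.51 on day 2, against 5.30 to 8.48 at day 0. That of the 11 proliferation genes lay at 7.77 to 10.27, against 8.93 to 9.45. Their part in these differences was not tested.

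On day 3, 0 members passed against day 0, where 0.352% of all genes were called higher and 0.467% lower. At an unadjusted p below 0.05, 6 members were higher (5.87% of all genes) and 1 lower (7.92%). The differences were positive for 28 members (46.8% of all genes), with a median of 0.51 against 0 over all genes, and a median of 0.08 where the probe sets of each gene were averaged. Without day 3 replicate 2, the array with a Gapdh gap of 5.79, the median was 0.05 and 22 differences were positive. Both day 3 arrays lay above all day 0 arrays in 10 members (15% of all genes) and below them in 6 (20.5%). In the fit without day 2 replicate 1, Noc4l, Ppan and Nhp2 rose (3.16% of all genes), without day 2 replicate 3 there were 2 calls upward (0.844%), and without day 3 replicate 1 there was 1 (1.3%). The mean of the spiked-in RNAs lay at 11.95 and 14.28 on day 3, against 5.30 to 8.48 at day 0. That of the 11 proliferation genes lay at 8.53 and 9.92, against 8.93 to 9.45. Their part in these differences was not tested. The 4 comparisons with day 0 share its 3 arrays.

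**Figure D3:**
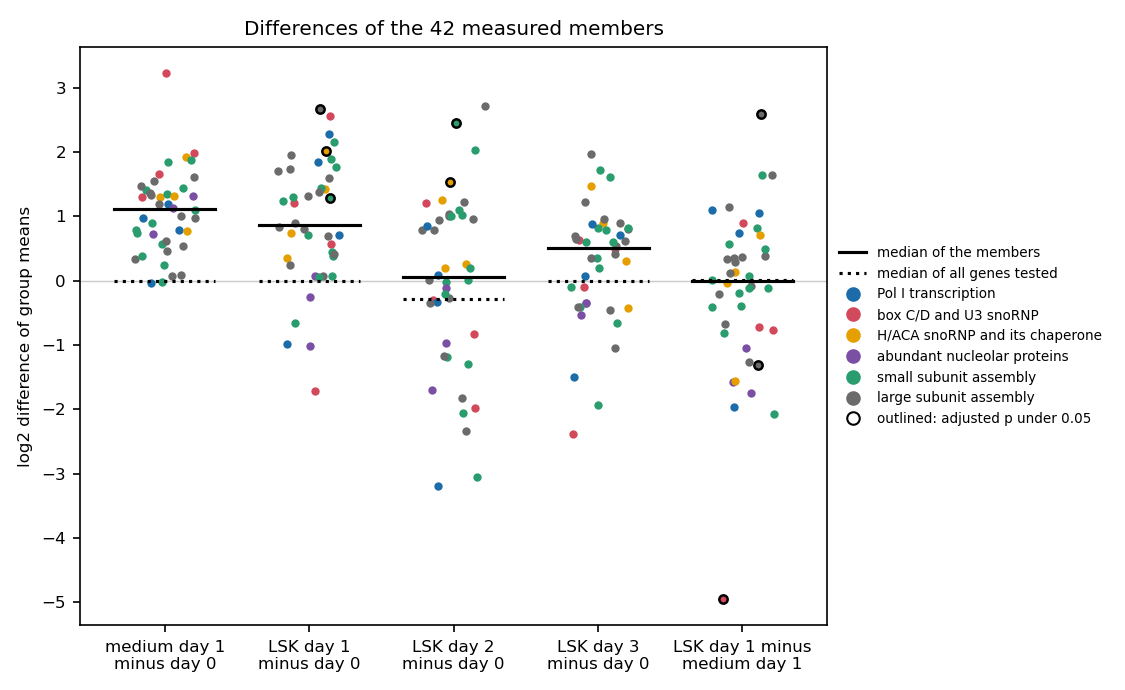
Log2 differences of the 42 genes (points, coloured by role) in 4 comparisons with day 0, which share the day 0 arrays, and in day 1 co-culture against the medium control; solid lines are the medians of the genes and dotted lines the medians of all genes tested. The member median lies at 1.11 for the medium control, 0.86 for day 1, 0.05 for day 2, where centring on measured probe sets moves it to 0.83, and 0.51 for day 3.

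Between days of co-culture 0 members passed. Against day 1, 6 of the 42 differences of day 2 were positive and 36 negative (37.5% of all genes positive; median -0.50, against -0.19 over all genes), and centring on measured probe sets, which raises all genes alike, moved the member median to 0.13, with 23 positive, and that of all genes to 0.44. All day 2 arrays lay below all day 1 arrays in 10 members (9.89% of all genes) and above them in 0 (2.5%). At an adjusted p below 0.05, 0% of all genes were called higher and 0.00819% lower. At an unadjusted p below 0.05, 13 members were lower (10.7% of all genes) and 0 higher (1.96%), and with array weights 9 passed downward (8.31%). With day 2 replicate 3 left out 14 members passed downward, against 13.1% of all genes. On day 3 against day 1, 4 of 42 differences were positive and 38 negative (44.4% of all genes positive; median -0.59, against -0.02 over all genes), and both day 3 arrays lay below all day 1 arrays in 16 members (11.5% of all genes) and above them in 1, Npm1 (8.28%). At an adjusted p below 0.05, 0% of all genes were called higher and 0.00819% lower there, and at an unadjusted p below 0.05, 2 members were lower (1.13%) and 0 higher (1.79%). With centring the median on day 3 was -0.54, and without day 3 replicate 1, 15 of the 42 differences were positive.

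**Figure D4:**
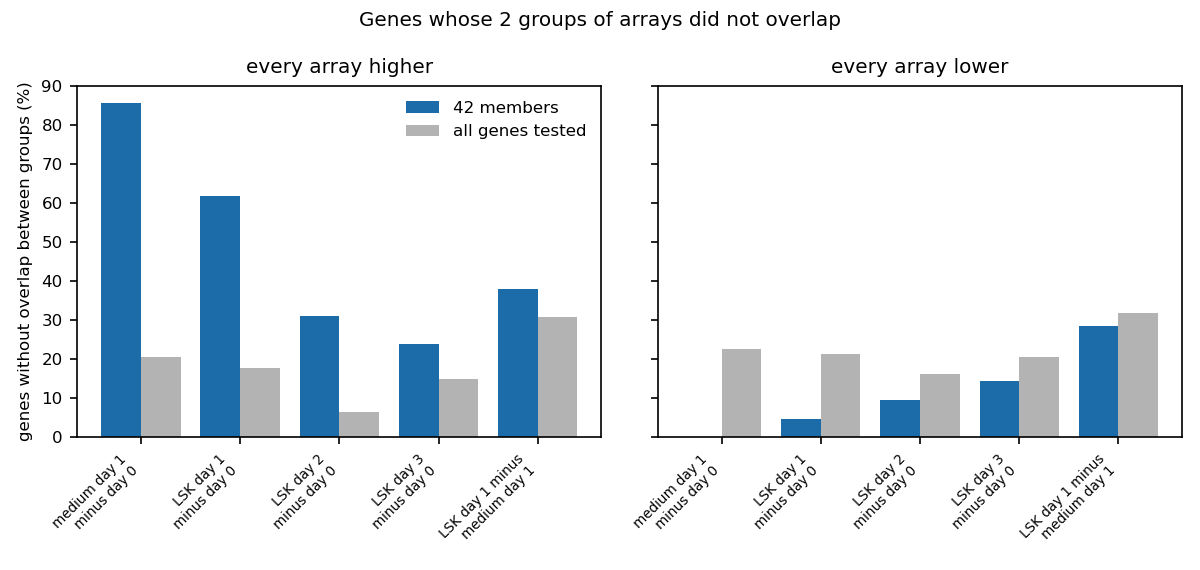
Share of the 42 genes (blue) and of all 12205 genes (grey) whose arrays did not overlap between the 2 groups compared, higher on the left panel and lower on the right. The share of the 42 genes is largest for medium control minus day 0 (36 of 42 higher, against 20.6% of all genes), and for day 1 co-culture minus medium control it is 16 of 42 higher and 12 lower, against 30.7% and 31.8% of all genes.

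Among the genes of RNA polymerase I transcription, polymerase subunits lay above the medium control on day 1 of co-culture and the initiation factor below it. None of these differences passed. Arrays without overlap were common in this comparison: 30.7% of all genes lay higher in that way and 31.8% lower. Polr1a, the largest subunit, lay at 7.92, 7.90 and 8.12 on day 1 of co-culture, 6.92 ± 0.10 in the medium control (SD, n = 2) and 5.58, 6.58 and 6.27 at day 0. Polr1b, the second largest subunit, lay at 6.51, 5.96 and 6.28 on day 1 with LSK cells, against 5.04 and 5.26 in the medium control and 2.91, 4.40 and 4.59 at day 0. For both subunits the co-culture arrays of day 1 lay above every medium and day 0 array, but neither passed, with differences from the medium control of 1.05 ± 0.63 (limma, adjusted p = 0.409) and 1.10 ± 0.76 (adjusted p = 0.496), and from day 0 of 1.84 ± 0.56 (adjusted p = 0.126) and 2.28 ± 0.68 (adjusted p = 0.116). Polr1c, a subunit shared with RNA polymerase III, lay 0.73 ± 0.32 above the medium control (adjusted p = 0.223), likewise without overlap. On day 2 Polr1a lay at 5.71, 4.52 and 7.20 and Polr1b at 3.92, 2.64 and 5.59, wide spreads that reach into the day 0 range. On day 3 the levels were 7.24 and 6.81 for Polr1a and 3.92 and 4.16 for Polr1b.

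Rrn3, the factor that brings the polymerase to the ribosomal RNA gene promoter, ran the other way. It lay at 7.49, 7.78 and 8.15 on day 1 of co-culture, against 9.81 and 9.73 in the medium control and 9.30, 8.50 and 8.61 at day 0. On day 2 it lay at 2.58, 6.39 and 7.84 and on day 3 at 7.57 and 7.05. Every co-culture array of the 3 days lay below every medium and day 0 array, yet no difference passed (day 1 minus medium control -1.96 ± 1.18, adjusted p = 0.413; day 2 minus day 0 -3.20 ± 1.05, adjusted p = 0.112). The value of 2.58 on day 2 replicate 1 widens the spread, and without that array Rrn3 fell past the test against the medium control.

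The core proteins of box C/D snoRNPs, which guide methylation of ribosomal RNA, held the most extreme difference of the set. Nop58, a scaffold protein of these particles, lay at 6.64, 8.91 and 7.80 on day 1 of co-culture, against 13.05 and 12.40 in the medium control and 10.79, 8.26 and 9.47 at day 0. It lay at 7.02, 8.11 and 7.46 on day 2 and at 7.21 and 7.02 on day 3. The medium arrays lay above all others, the day 1 co-culture and day 0 arrays overlapped, and on days 2 and 3 all arrays lay below day 0. The fall against the medium control was -4.94 ± 0.78 (30.8-fold, limma adjusted p = 0.0138), and the differences from day 0 did not pass (medium control 3.22 ± 0.78, adjusted p = 0.17; day 1 -1.72 ± 0.69, adjusted p = 0.237; day 3 -2.39 ± 0.78, adjusted p = 0.201). Nop58 has 1 probe set on the array. Its call against the medium control held under 8 of 8 other settings that kept all arrays (adjusted p 3.19e-05 to 0.048), and was lost without either medium array or day 1 replicate 3 (adjusted p up to 0.154).

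Nop56, the partner of Nop58 in the particle, lay at 11.07, 11.77 and 11.33 on day 1 with LSK cells, against 12.23 and 12.09 in the medium control and 10.72, 9.59 and 10.24 at day 0. Both day 1 groups lay above day 0 without overlap, and the co-culture arrays lay below the medium arrays. No difference passed (medium control minus day 0 1.98 ± 0.66, adjusted p = 0.343; day 1 co-culture minus medium control -0.77 ± 0.66, adjusted p = 0.62). Fbl, which encodes the methyltransferase fibrillarin, lay at 9.70, 10.17 and 11.08 on day 1 with LSK cells, against 11.21 and 10.85 in the medium control and 9.80, 9.26 and 10.16 at day 0. Its co-culture arrays overlapped both controls, and on day 2 it ranged over 10.01, 6.51 and 10.20. Rrp9, a protein of the U3 particle, lay at 7.43, 7.83 and 8.56 on day 1 of co-culture, above 7.25 and 6.86 in the medium control and 4.63, 4.95 and 6.58 at day 0 (day 1 minus day 0 2.55 ± 0.88, adjusted p = 0.168). On day 2 it lay at 3.24, 4.93 and 7.10, each below all day 1 arrays (-2.85 ± 0.88, adjusted p = 0.378).

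In the H/ACA particles, which convert uridine to pseudouridine, Nhp2 rose against day 0, and the probe set chosen for Dkc1 did not follow it. Nhp2, an RNA-binding core protein, lay at 13.54, 13.61 and 13.70 on day 1 with LSK cells, against 12.87 and 12.96 in the medium control and 11.79, 10.84 and 12.19 at day 0. It lay at 13.05, 13.51 and 12.87 on day 2 and 13.05 and 13.09 on day 3, so that all 10 later arrays lay above all 3 day 0 arrays. Nhp2 rose by 2.01 ± 0.32 on day 1 (4.03-fold, limma adjusted p = 0.0198) and 1.54 ± 0.32 on day 2 (adjusted p = 0.0439) against day 0. The differences of day 3 (1.46 ± 0.35, adjusted p = 0.105) and of the medium control (1.31 ± 0.35, adjusted p = 0.213) did not pass. The day 1 call held under 5 of 8 other settings with all arrays and without 3 of its 6 own arrays, the day 0 ones (adjusted p up to 0.107, without day 1 replicate 3). The day 2 call held under 3 of 8 settings and without day 0 replicate 3 or day 2 replicate 3, and it was lost without any 1 of the other 11 arrays, day 2 replicate 1 among them (adjusted p = 0.0576). A further probe set of Nhp2 gave 1.59 on day 1 and 0.13 on day 2.

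Dkc1, the pseudouridine synthase dyskerin, lay at 9.03, 9.68 and 9.92 on day 1 with LSK cells, against 11.31 and 10.91 in the medium control and 9.40, 8.94 and 9.22 at day 0. The medium arrays lay above all others and the co-culture arrays overlapped day 0. The differences were -1.57 ± 0.44 against the medium control (adjusted p = 0.0735) and, for the medium control minus day 0, 1.92 ± 0.44 (adjusted p = 0.144). Its other probe sets disagreed, with -3.73 and 2.52 against the medium control. For day 1 co-culture minus day 0 they gave -0.11 and 1.85, against 0.36 in the chosen one. Against day 0 they gave 0.77 and 1.21 on day 2, and -1.33 and 1.87 on day 3. Gar1, a further core protein, and Nolc1, a chaperone of snoRNPs in the nucleolus, differed from the medium control by -0.03 ± 0.54 and 0.13 ± 0.41. Against day 0 Nolc1 differed by 1.43 ± 0.37 on day 1 of co-culture (adjusted p = 0.0799) and by 1.30 ± 0.41 in the medium control (adjusted p = 0.297). Other probe sets of Nolc1 gave -0.35 and 0 for day 1 of co-culture minus day 0. For the medium control minus day 0 they gave 1.54 and 0.66, and for day 1 co-culture minus medium control -1.89 and -0.66.

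The abundant nucleolar proteins Ncl, Npm1 and Ddx21 all lay lower in day 1 co-culture than in the medium control without overlap in the probe sets chosen for them, and none passed. Of all genes 31.8% lay lower in that way. Npm1, the histone and ribosome chaperone nucleophosmin, lay at 11.96, 12.75 and 12.74 on day 1 with LSK cells, against 14.15 and 14.31 in the medium control and 13.90, 13.37 and 13.24 at day 0. All day 1 co-culture arrays lay below every array of both controls (against the medium control -1.75 ± 0.48, adjusted p = 0.0689; against day 0 -1.02 ± 0.43, adjusted p = 0.263), and a second probe set gave -2.56 and -1.52. On days 2 and 3 the levels were 12.99, 11.54 and 13.06, and 12.81 and 13.50.

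Ncl, the RNA-binding protein nucleolin, lay at 11.24, 12.65 and 12.70 on day 1 with LSK cells, against 13.86 and 13.68 in the medium control and 12.85, 11.98 and 12.53 at day 0. The medium arrays lay above all others and the co-culture arrays overlapped day 0 (against the medium control -1.58 ± 0.62, adjusted p = 0.179). On day 2 it lay at 10.14, 10.15 and 11.98 and on day 3 at 11.94 and 12.28. Ddx21, a nucleolar RNA helicase, differed from the medium control by -1.05 ± 0.43 (adjusted p = 0.195) and from day 0 by 0.07 ± 0.38. The second probe set of Ddx21 had the opposite sign against the medium control, at 0.85. Of 4 other probe sets of Ncl, 1 gave -3.69, while the others gave -0.0067, -0.0011 and 0. In the chosen probe sets all 3 genes were lower against the medium control at an unadjusted p below 0.05, which 11.9% of all genes were.

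Among 13 small subunit assembly factors, Tsr1 rose on day 1 and Noc4l on day 2 against day 0, and 0 fell. Of all genes 0.828% were called higher and 1.33% lower on day 1, and 0.639% and 1.62% on day 2. Tsr1, a late factor related to translation GTPases, lay at 12.86, 12.95 and 13.03 on day 1 with LSK cells, against 12.43 and 12.46 in the medium control and 11.55, 11.35 and 12.10 at day 0. In the chosen probe set the co-culture arrays lay above the medium arrays, and these above day 0. Tsr1 rose by 1.28 ± 0.25 on day 1 against day 0 (2.43-fold, limma adjusted p = 0.0379), and the medium control differed from day 0 by 0.78 ± 0.28 (adjusted p = 0.37). A second probe set of Tsr1 gave -1.87 for day 1 co-culture minus medium control and 1.78 for the medium control minus day 0. For day 1 minus day 0 it gave -0.09, and with the mean of both probe sets the call was lost. It held under 5 of 8 other settings with all arrays, and without 1 of its 6 own arrays, day 0 replicate 3, and it was lost without either medium array.

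Noc4l, which acts with Nop14 in the early small subunit particle, lay at 10.24, 10.67 and 10.71 on day 1 of co-culture, 12.36, 11.07 and 9.86 on day 2, 10.15 and 10.58 on day 3, 8.75 and 9.04 in the medium control and 8.53, 8.70 and 8.72 at day 0. In the chosen probe set all 8 co-culture arrays lay above all 5 arrays without LSK cells. Noc4l rose by 2.45 ± 0.51 on day 2 against day 0 (5.46-fold, limma adjusted p = 0.0445). The other differences did not pass (day 1 minus day 0 1.89 ± 0.51, adjusted p = 0.0892; day 1 minus medium control 1.64 ± 0.57, adjusted p = 0.128; day 3 minus day 0 1.72 ± 0.57, adjusted p = 0.206). The day 2 call held under 2 of 8 other settings with all arrays and without day 2 replicate 1 or 3, and it was lost without any 1 of the other 11 arrays (adjusted p up to 0.145). Of its 3 other probe sets, 1 gave 2.45 and the others -0.04 and 0.52 on day 2. In the same order they gave 1.17, 0.40 and 0.21 for day 1 co-culture minus medium control. For the medium control minus day 0 they gave 0.62, 1.00 and 1.03.

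Nop14, the partner of Noc4l, lay at 6.78, 7.39 and 7.78 on day 1 with LSK cells, against 9.49 and 9.28 in the medium control and 8.33, 7.60 and 8.01 at day 0. It lay at 2.84, 4.88 and 7.04 on day 2 and 6.54 and 5.56 on day 3, below day 0 on all 5 arrays. Its differences of -2.07 ± 0.95 against the medium control (adjusted p = 0.256) and, on day 2 and day 3, of -3.06 ± 0.85 (adjusted p = 0.0838) and -1.93 ± 0.95 (adjusted p = 0.41) against day 0 did not pass. Heatr1, part of the complex that first binds the nascent precursor, lay at 7.76, 8.16 and 8.26 on day 1 with LSK cells, against 8.23 and 8.12 in the medium control and 7.15, 5.66 and 6.08 at day 0. Both day 1 groups lay above day 0 and overlapped each other (differences from day 0 1.76 ± 0.54, adjusted p = 0.13, and 1.88 ± 0.61, adjusted p = 0.321). Bysl, needed for late steps of the small subunit, differed from day 0 by 2.15 ± 0.57 on day 1 and 2.03 ± 0.57 on day 2 (adjusted p = 0.0878 and 0.0853). Rrp12, an export factor, averaged 7.82 ± 0.79 on day 1 of co-culture (SD, n = 3) and lay at 2.81, 5.41 and 7.38 on day 2, which overlap. The other factors were Wdr43, Wdr75, Utp15, Utp20, Nob1, Imp3 and Imp4, and none passed. In the chosen probe sets their differences from the medium control on day 1 of co-culture ran from -0.82 (Wdr75) to 0.56 (Imp4). Other probe sets gave -3.95 and -0.10 for Imp4, -1.07 for Utp15 and -0.99 for Wdr43.

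Of 14 measured large subunit assembly factors, Ppan rose in both day 1 comparisons and Wdr12 fell against the medium control. Against the medium control 2.15% of all genes were called higher and 3.05% lower, and against day 0 0.828% and 1.33%. Ppan, needed for processing of large subunit RNA, lay at 9.32, 10.57 and 10.51 on day 1 of co-culture, against 7.55 and 7.53 in the medium control and 6.98, 7.35 and 8.08 at day 0. It lay at 8.38, 8.51 and 9.16 on day 2 and 9.47 and 9.42 on day 3. All 8 co-culture arrays lay above all 5 arrays without LSK cells, and the medium and day 0 arrays overlapped. Ppan rose by 2.59 ± 0.44 against the medium control (6.04-fold, limma adjusted p = 0.0175) and by 2.66 ± 0.39 against day 0 (6.33-fold, adjusted p = 0.0141). The differences from day 0 on day 2 (1.22 ± 0.39, adjusted p = 0.109) and day 3 (1.97 ± 0.44, adjusted p = 0.083) did not pass. Both day 1 calls held under 8 of 8 other settings with all arrays. The call against the medium control was lost without either medium array or day 1 replicate 2 or 3 (adjusted p up to 0.158). The call against day 0 was lost without day 0 replicate 2 or day 1 replicate 2 or 3 (adjusted p up to 0.0857). Ppan has 1 probe set on the array.

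**Figure D5:**
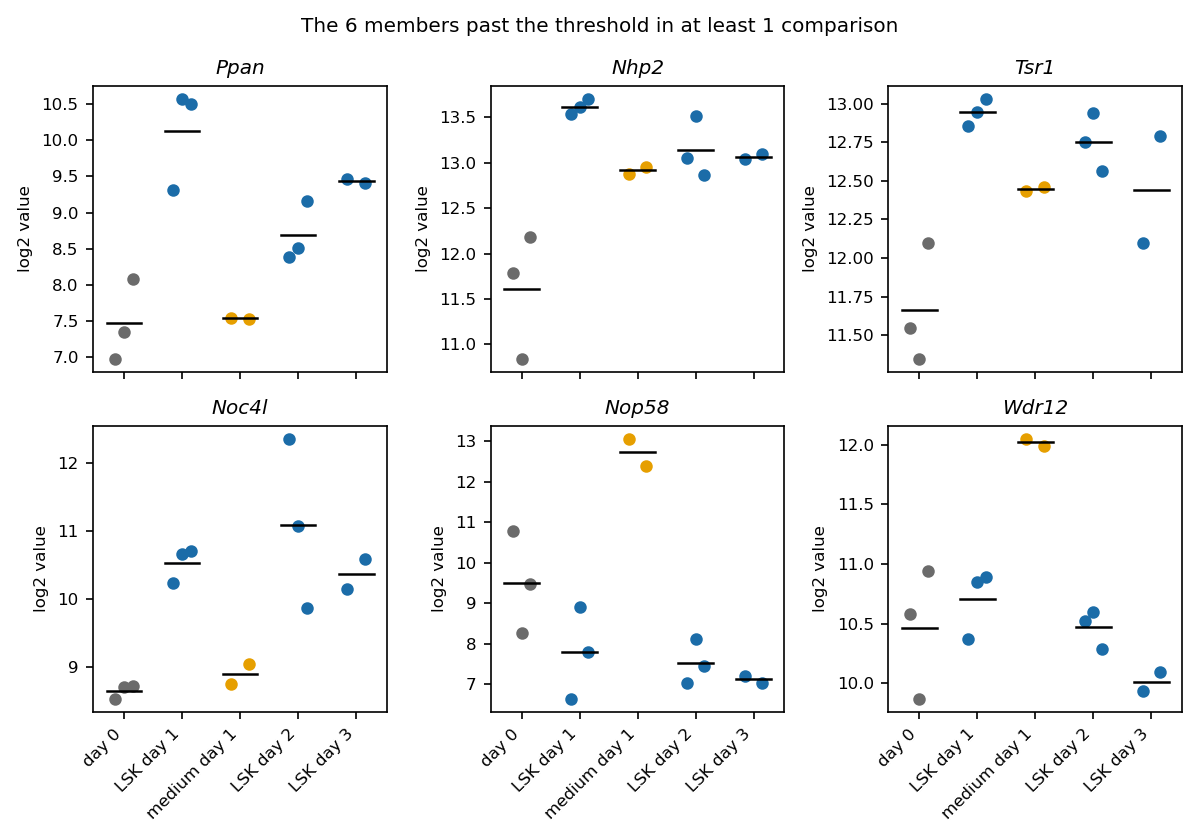
Log2 level on each array (points) and group mean (lines) of the 6 genes that passed in at least 1 comparison, by group. For Ppan and Noc4l all co-culture arrays lie above day 0 and medium control arrays; for Nop58 and Wdr12 the 2 medium arrays lie above all others; for Nhp2 all later arrays lie above day 0.

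Pes1, Bop1 and Wdr12 form a complex needed for large subunit RNA processing, and they differed from the medium control in opposite directions on day 1. Wdr12 lay at 10.38, 10.85 and 10.90 on day 1 of co-culture, against 12.05 and 11.99 in the medium control and 10.58, 9.87 and 10.94 at day 0. The co-culture arrays lay below the medium arrays and overlapped day 0. It fell by 1.31 ± 0.31 on the log2 scale (2.48-fold, limma adjusted p = 0.042), a call that held under 2 of 8 other settings with all arrays and was lost without day 0 replicate 1 and without any 1 of its 5 own arrays (for these, adjusted p 0.0997 to 0.269). Pes1 lay at 9.75, 10.16 and 10.43 on day 1 with LSK cells, against 9.09 and 8.86 in the medium control and 8.13, 8.46 and 8.95 at day 0. Bop1 lay at 8.98, 8.74 and 9.22 on day 1 with LSK cells, against 7.40 and 7.27 in the medium control and 6.39, 7.52 and 7.84 at day 0. For both genes the day 1 co-culture arrays lay above all medium and day 0 arrays, and the differences from the medium control were 1.14 ± 0.76 (adjusted p = 0.478) and 1.65 ± 0.78 (adjusted p = 0.268).

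Gnl3, the nucleolar GTPase nucleostemin, lay at 11.58, 12.21 and 12.01 on day 1 with LSK cells, against 12.07 and 11.96 in the medium control and 11.25, 10.58 and 11.29 at day 0. Both day 1 groups lay above day 0 and overlapped each other (differences from day 0 0.89 ± 0.38, adjusted p = 0.271, and 0.98 ± 0.43, adjusted p = 0.513). Nop16, an early large subunit factor, lay at 9.39, 9.64 and 9.90 on day 1 of co-culture and 4.56, 5.00 and 8.78 on day 2, all lower than on day 1 (-3.53 ± 0.91, adjusted p = 0.378). Nip7, which acts late in the nucleolus, lay between 10.67 and 12.26 on 12 arrays and at 2.73 on day 2 replicate 1. Grwd1, a histone-binding protein of the large subunit precursor, differed from day 0 by 2.72 ± 0.85 on day 2 (adjusted p = 0.103), the largest positive value of that comparison among the 42 genes. Without day 2 replicate 1 this difference was 1.73, and other probe sets of Grwd1 gave -0.11 and 1.34 on all arrays. The remaining factors, Rrs1, Nop2, Noc2l, Noc3l, Ebna1bp2 and Ddx18, did not pass in any comparison. In the chosen probe sets their differences from the medium control on day 1 of co-culture ran from -1.26 (Noc3l) to 0.38 (Noc2l). Other probe sets gave -2.52 and 0.16 for Ddx18 and 0.505 for Noc2l.

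Sequence upstream of the genes was taken from the RefSeq promoter table of build GRCm38.p6, which holds 38 of the 43 genes (Fbl, Npm1, Rrp12, Rrs1 and Bop1 are not in it) in windows of 250 bases before to 50 bases after a transcription start. Both strands were searched for CACGTG, the E-box letters that Myc binds and for GGGCGG, the core of Sp factor sites. CACGTG reads the same on both strands, and CACGTG and GGGCGG shared letters in 0 windows. In the 250 upstream bases CACGTG was found for 3 of 38 genes (7.9%), Nop2, Rrn3 and Imp4, against 6.86% of 27025 genes. In the whole 300 bases it was found for 8 (21.1%) against 8.09%, adding Pes1, Wdr43, Utp20, Grwd1 and Tsr1. GGGCGG was found upstream for 22 genes (57.9%) against 35.4%. These are matches of letters and were not tested. The 250 upstream bases, all on the + strand, are given for Nop58 (chr1:59684756-59685005) and Ppan (chr9:20887925-20888174), the genes with the widest falls and rises against the medium control. They are followed by Nop2 (chr6:125131633-125131882), a methyltransferase of large subunit RNA, and Rrn3 (chr16:13780449-13780698), in which capitals mark CACGTG. Nop58 and Ppan have no CACGTG in this window. In Rrn3 the letters begin 215 and 48 bases before the start, and in Nop2 60 bases before it. RefSeq places the gene start of Nop58 at 59684961, so the last bases of its window lie within the gene.
Nop58: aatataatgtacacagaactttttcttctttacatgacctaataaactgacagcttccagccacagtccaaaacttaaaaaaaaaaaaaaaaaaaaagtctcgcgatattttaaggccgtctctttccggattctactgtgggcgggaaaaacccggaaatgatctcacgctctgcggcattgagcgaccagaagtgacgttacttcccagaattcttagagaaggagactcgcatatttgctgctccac
Ppan: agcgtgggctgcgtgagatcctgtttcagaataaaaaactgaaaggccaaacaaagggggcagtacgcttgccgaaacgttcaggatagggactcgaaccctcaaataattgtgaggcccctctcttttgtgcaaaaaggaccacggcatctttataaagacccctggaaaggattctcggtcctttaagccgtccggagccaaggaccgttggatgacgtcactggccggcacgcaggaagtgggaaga
Nop2: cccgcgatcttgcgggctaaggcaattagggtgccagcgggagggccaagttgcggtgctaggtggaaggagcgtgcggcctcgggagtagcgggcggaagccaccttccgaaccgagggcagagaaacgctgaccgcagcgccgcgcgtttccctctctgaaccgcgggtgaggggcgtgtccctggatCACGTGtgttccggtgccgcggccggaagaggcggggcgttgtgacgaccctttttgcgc
Rrn3: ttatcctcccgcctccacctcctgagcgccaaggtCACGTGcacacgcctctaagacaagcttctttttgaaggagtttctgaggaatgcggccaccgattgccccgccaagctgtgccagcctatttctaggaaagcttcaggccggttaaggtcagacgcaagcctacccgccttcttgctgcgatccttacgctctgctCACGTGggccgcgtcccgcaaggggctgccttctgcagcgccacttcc

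The other genes of the pathway, from a longer list of 100 measured assembly factors, were as follows. In day 1 co-culture against the medium control 1 of 100 rose and 4 fell, against 2.15% and 3.05% of all genes. At an unadjusted p below 0.05, 4 were higher and 18 lower, against 9.04% and 11.9% of all genes. Ddx54, an RNA helicase, rose by 1.57 (limma, adjusted p = 0.0321). Esf1, a small subunit processing factor, fell to 6.51 ± 0.20 in co-culture (SD, n = 3), against 10.28 ± 0.17 in the medium control (n = 2; limma, adjusted p = 0.0343). Ltv1, a factor of late small subunit steps, fell by 3.59 on the log2 scale (adjusted p = 0.0341), Naf1, an H/ACA assembly protein, by 2.69 (adjusted p = 0.0413), and Ftsj3, an RNA methyltransferase, by 2.46 (adjusted p = 0.0204). In the medium control against day 0, 0 of 100 passed, the median was 0.65 against 0 over all genes, and 63 lay above day 0 without overlap, against 20.6% of all genes. Against day 0, 4 rose on day 1 (Ddx49, Rrp1b, Ddx54 and Rrp15, by 1.35 to 1.77), 2 rose on day 2 (Nol10 by 1.84 and Ddx54 by 1.53) and 0 passed on day 3. Of all genes 0.828% were called higher on day 1, 0.639% on day 2 and 0.352% on day 3.

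Of 12 measured further factors of RNA polymerase I, Ubtf rose and Taf1b fell in day 1 co-culture against the medium control, and the other 10 did not pass. Of all genes 2.15% were called higher and 3.05% lower in that comparison. Ubtf, the factor that binds the ribosomal RNA genes, lay at 9.49, 9.58 and 9.98 on day 1 of co-culture, against 7.91 and 7.80 in the medium control and 7.48, 8.38 and 8.74 at day 0. The co-culture arrays lay above all arrays of both controls (against the medium control 1.83 ± 0.45, limma adjusted p = 0.0476; against day 0 1.48 ± 0.40, adjusted p = 0.0903). Taf1b, a subunit of the promoter selectivity factor, averaged 2.54 ± 0.11 on day 1 of co-culture (SD, n = 3), near the lowest value of the table, against 5.00 ± 0.05 in the medium control (n = 2) and 4.58 ± 0.60 at day 0 (n = 3). Its adjusted p was 0.0114 against the medium control and 0.0195 against day 0 in limma. It also fell on day 2 against day 0 (-1.89, adjusted p = 0.0289). Against day 0, 1.33% of all genes were called lower on day 1 and 1.62% on day 2.

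Of 11 measured genes of Myc and its partners, 0 passed in any of the 7 comparisons. At an unadjusted p below 0.05 there was 1 higher and 1 lower in each comparison with day 0. The shares of all genes were 4.9% higher and 4.55% lower in the medium control, and 7.5% and 9.77% on day 1. They were 6.83% and 19.4% on day 2, and 5.87% and 7.92% on day 3. Myc lay at 8.58, 9.12 and 8.94 on day 1 with LSK cells, against 8.65 and 8.98 in the medium control and 8.04, 7.41 and 7.04 at day 0. It lay at 8.85, 8.17 and 8.69 on day 2 and 8.05 and 9.30 on day 3, so that all 10 later arrays lay above the 3 day 0 arrays. Its differences from day 0 were 1.38 ± 0.37 on day 1 of co-culture (limma, adjusted p = 0.0929) and 1.32 ± 0.42 in the medium control (adjusted p = 0.304), and day 1 co-culture minus medium control was 0.06 ± 0.42 (adjusted p = 1). Mycn lay at its lowest value on 10 of the 13 arrays.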

How the data were processed

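Gene expression was measured on 13 Affymetrix mouse arrays. The deposited table holds log2 values, as their range of up to 15.7 shows, with 1 value per probe set. Per the submitters' processing notes, RMA and GCRMA were used, and which step each made is not stated. The values were used as deposited. Probe sets (45101, of which 64 controls) were named by the platform annotation, in which 34945 had 1 symbol, 932 several and 9211 none. A probe set entered where at least 2 arrays exceeded 2.38, the median of all values.

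Arrays were grouped by title. All 13 entered 1 fit with a mean per group (limma 3.58.1, R 4.3.3), and p-values were Benjamini-Hochberg adjusted over 12205 genes. Each comparison was checked on simulated data with changes of size 1, 2 and 4. Those of size 1 were recovered in 3.88% to 14.3% of cases, depending on the comparison. Recovery was 29.6% to 40.3% at size 2 and 67.3% to 78.8% at size 4. A difference that did not pass can thus be a missed one. Members, roles and lists were chosen with earlier results of these data known. Named genes were up to 6 members past the threshold per comparison (up to 4 as values where none passed), 12 fixed members, and up to 3 per further list. The text names further members as values. The number of arrays limits the precision. Figures used Python 3.11.15. Deviations of same-numbered arrays from their group means correlated at -0.37 to 0.26, which cannot decide whether the numbers pair the arrays.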

Additional observations from a re-analysis of the deposited data

How the results depend on the processing

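Counts of the 42 genes past the test depended on the settings, and no direction of a named gene past the test reversed. In the order day 1 co-culture minus medium control, medium control minus day 0, then day 1, day 2 and day 3 minus day 0, day 2 minus day 1 and day 3 minus day 1, the counts were 3, 0, 3, 2, 0, 0 and 0 as reported. Array weights gave 25, 28, 27, 15, 0, 9 and 0. Calls over all genes also grew with those weights: 25.1% were higher and 27.5% lower in the first comparison, 14.2% and 15.2% in the second, 12.6% and 16.7% in the third, 5.66% and 15.2% in the fourth, and 2.11% and 8.31% in day 2 minus day 1. With only the compared groups in the fit the members' counts were 18, 1, 15, 0, 0, 0 and 0, where 17.9% of all genes were higher and 19.6% lower in the first comparison, and 5.95% and 8.68% in the third. For day 2 minus day 0, quantile normalisation gave 4, centring 0, no filter 0, and a trended robust variance 1. For day 1 minus day 0 centring gave 1. With the replicate number as a block, day 1 minus day 0 gave 1 and day 2 minus day 0 gave 0. Deviations of same-numbered arrays from their group means correlated at -0.37 to 0.26, and those of other pairs at -0.38 to 0.38. Deviations within a group of 2 or 3 arrays cancel each other, so these ranges cannot decide whether the numbers pair the arrays. Leaving out 1 array at a time gave 0 to 8, 0, 0 to 9, 0 to 17, 0 to 3, 0 to 14 and 0. Without day 2 replicate 1 and day 3 replicate 2, a choice made after seeing the data, the counts were 7, 3, 12, 2, 0, 0 and 0. The causes of these changes were not tested. With 2 or 3 arrays a group, some genes wholly without overlap did not pass. Of 39 other probe sets of 28 members, 14, 5, 9, 19, 18, 20 and 8 had the opposite sign in these comparisons.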

Other observations

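Cytosolic ribosomal protein genes, the end products that the assembly factors handle, lay above day 0 on day 3 more often than all genes, though none passed the test there. The differences of 33 of the 40 measured genes were positive on day 3, against 46.8% of all genes, and 20 lay above day 0 without overlap, against 15%. At an unadjusted p below 0.05, 14 were higher (5.87% of all genes) and 0 lower (7.92%). The most positive difference was that of Rpl27a, at 2.94. Of the 40, Rpl22 rose by 1.11 ± 0.25 (limma, adjusted p = 0.0384) and Rpl4 fell by 1.43 ± 0.35 on the log2 scale (adjusted p = 0.0496) in day 1 co-culture against the medium control, where 2.15% of all genes were called higher and 3.05% lower. In the other 6 comparisons 0 passed. At an unadjusted p below 0.05, 2 were higher and 1 lower in the medium control against day 0, against 4.9% and 4.55% of all genes. The median difference from day 0 was 0.21 in the medium control, 0.38 on day 1, 0.33 on day 2 and 0.53 on day 3.

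The nuclear exosome trims precursors of ribosomal RNA. Of its 13 measured genes, Mtrex, the helicase that feeds it, fell on day 1 of co-culture by 1.71 ± 0.26 on the log2 scale against the medium control (adjusted p = 0.012). Against day 0 it fell by 1.49 ± 0.23 on day 1 (adjusted p = 0.0167) and by 1.38 ± 0.26 on day 3 (adjusted p = 0.0465). Exosc2, a subunit that caps the ring of the exosome, fell by 2.79 ± 0.66 against the medium control (adjusted p = 0.0455). The other 11 genes did not pass in any of the 7 comparisons. Against the medium control 3.05% of all genes were called lower, and against day 0 1.33% on day 1 and 0.467% on day 3.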
